A study of Mus musculus with 16 samples.

Results

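The genes described here are those of the proteasome, the particle that degrades ubiquitin-tagged proteins. They were taken as all table rows, in both parts of the authors' FPKM table, whose symbol starts with Psma to Psmg and a number. This gave 50 of 17986 genes. FPKM scales the fragments of a gene to the length of its transcript and to the depth of the library, so levels can be set side by side between genes.

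CA1, a field of the hippocampus, had been cut out by laser from unperfused frozen brain sections of male C57Bl6 mice aged 3 to 6 months, and its RNA sequenced. The labels give 2 genotypes, wild type and N3 -/-, the second being Neil3-/- on the same background. Neil3 encodes a DNA glycosylase of base excision repair. Home cage mice were taken without any training. The mice labelled spatial exploration had spent 20 min a day for 1 week in an open arena with food cues and a cue card, and their brains were taken 20 min after the final session. The 4 groups were wild type home cage (n = 2), N3 -/- home cage (n = 2), wild type exploration (n = 3) and N3 -/- exploration (n = 3), with 1 library per mouse. A further 6 samples, of the learning condition, were not analysed here.

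Neil3 went against the genotype labels: wild type libraries had 0 to 0.05 FPKM and N3 -/- libraries 8.35 to 15.22 FPKM. The groups are therefore called WT-labelled and KO-labelled throughout, and every genotype direction below is a direction between labels. Depth was estimated at 18050000 to 19300000 fragments per library, and FPKM summed to between 405722 and 466710. For the ribosomal RNA Rn18s, home cage libraries gave 1714.68 to 2398.35 FPKM and exploration libraries 5.69 to 10.56 FPKM. Home cage and exploration libraries stand in separate parts of the table, so the effect of exploration and that of the table part cannot be told apart. In bulk tissue, fewer cells of a type and less RNA per cell cannot be told apart either.

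The proteasome is built from a barrel-shaped core, the 20S particle, and a cap, the 19S particle. The core's outer rings are made of alpha subunits and its inner rings of beta subunits, of which a few carry the proteolytic sites. The cap binds ubiquitin chains, removes them, and unfolds the substrate with a ring of ATPases. Interferon can exchange the catalytic beta subunits for inducible ones, which makes the immunoproteasome. In hippocampal neurons, protein breakdown by the proteasome is known to take part in lasting synaptic change.

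The promoters of 2 constitutive catalytic genes and of the inducible genes that replace their products are shown first, because these pairs span the highest and some of the lowest levels of the family. Psmb5 and Psmb8 encode the chymotrypsin-like subunit in its constitutive and inducible forms, and Psmb6 and Psmb9 do so for the caspase-like subunit. Each window holds 300 bases that end just after the transcription start, 5′ to 3′ on the gene's strand, from RefSeq on GRCm38.p6. Capitals mark matches to either of 2 motifs: the core of the antioxidant response element (TGACNNNGC, known as a site of the transcription factors encoded by Nfe2l1 and Nfe2l2) and the CCAAT box (CCAAT). Both strands were searched, and no match shared bases with a match to the other motif in these 4 windows. The windows are chr14:54617946-54618245 (minus strand) for Psmb5, chr17:34197945-34198244 (plus strand) for Psmb8, chr11:70525107-70525406 (plus strand) for Psmb6 and chr17:34187281-34187580 (minus strand) for Psmb9.
Psmb5: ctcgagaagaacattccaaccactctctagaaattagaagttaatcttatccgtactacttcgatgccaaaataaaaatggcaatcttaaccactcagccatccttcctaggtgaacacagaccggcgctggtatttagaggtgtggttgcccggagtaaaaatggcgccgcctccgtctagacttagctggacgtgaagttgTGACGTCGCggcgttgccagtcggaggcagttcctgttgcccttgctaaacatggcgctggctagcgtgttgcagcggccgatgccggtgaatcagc
Psmb8: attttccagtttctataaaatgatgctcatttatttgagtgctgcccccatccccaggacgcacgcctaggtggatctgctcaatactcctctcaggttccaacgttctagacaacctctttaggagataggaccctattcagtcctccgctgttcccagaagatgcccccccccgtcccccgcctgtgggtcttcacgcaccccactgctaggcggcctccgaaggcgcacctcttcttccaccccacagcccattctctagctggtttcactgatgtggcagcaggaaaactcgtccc
Psmb6: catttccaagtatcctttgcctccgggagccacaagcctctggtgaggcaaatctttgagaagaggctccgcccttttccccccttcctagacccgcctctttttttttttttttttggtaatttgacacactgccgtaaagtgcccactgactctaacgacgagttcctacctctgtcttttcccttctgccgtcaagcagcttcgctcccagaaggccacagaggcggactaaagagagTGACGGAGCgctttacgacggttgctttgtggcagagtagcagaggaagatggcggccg
Psmb9: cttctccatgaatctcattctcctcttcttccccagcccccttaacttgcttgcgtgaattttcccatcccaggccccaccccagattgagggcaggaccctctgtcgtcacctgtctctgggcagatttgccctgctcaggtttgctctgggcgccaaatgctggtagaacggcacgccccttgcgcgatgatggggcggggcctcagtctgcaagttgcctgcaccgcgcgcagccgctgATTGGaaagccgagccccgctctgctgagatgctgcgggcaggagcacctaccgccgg

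The windows of Psmb5 and Psmb6 each held the antioxidant response element core and that of Psmb9 a CCAAT box on the opposite strand. The letters of neither motif were in the window of Psmb8. Of the 50 symbols, 42 had a promoter window in the RefSeq table. The antioxidant response element core stood in 6 of them (14.3%), namely Psmb5, Psmb6, Psmc6, Psmd9, Psmd12 and Psme4, and in 14.0% of the 27025 genes with a window. CCAAT stood in 15 of the 42 (35.7%) and in 41.1% of all genes. These shares were close to those of all promoters, and a match is a run of letters, not a measured site.

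The 50 genes lay on 16 chromosomes, with 10 on chromosome 11, and a few stood next to one another. Psmb8 (chr17:34198195-34201454) and Psmb9 (chr17:34182030-34187330) sit in the major histocompatibility region. Psme1 (chr14:55578494-55581527) and Psme2 (chr14:55587440-55591101), for both subunits of the PA28 activator, are neighbours on chromosome 14, as are Psmb5 (chr14:54614120-54617995) and Psmb11 (chr14:54625310-54629556). Positions are from the RefSeq annotation on GRCm38, and exon overlaps from that of GENCODE. Exons of 15 of the 50 overlap those of another gene, and whether reads were counted by strand is not given in the sources used here, so those values may share reads. Among them are Psmb9 with Tap1, Psmb7 with Nek6, Psme1 with Emc9 and Psmc3 with Slc39a13, each on the opposite strand.

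Most subunits of the particle were abundant in CA1, and assembly factors were scarcer. Together the 50 genes summed to 2766.7 to 3004.0 FPKM in the home cage libraries and to 3243.2 to 3639.8 FPKM in the exploration libraries, which was 0.678% to 0.696% and 0.744% to 0.780% of all FPKM. The median level of the 4 non-catalytic beta genes was 119 to 186 FPKM over the libraries, and that of the 3 constitutive catalytic genes 117 to 170.0 FPKM. The 6 ATPase genes of the cap had medians of 83.6 to 96.3 FPKM and its 11 non-ATPase genes of 60.2 to 72.1 FPKM. The median was lower for the activators (22.5 to 32.1 FPKM), the cap's assembly chaperones (10.1 to 16.4 FPKM) and the core's assembly chaperones (10.1 to 18.8 FPKM). Psmf1, which encodes the core inhibitor PI31, was at 7.25 to 9.71 FPKM.

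Psmb5 (gene ID 19173) had the highest mean of the 50, 184 FPKM, above 96.5% of the tested genes. Psmb1, for a non-catalytic beta subunit, followed with a mean of 182 FPKM. The lowest mean was that of Psme2b (gene ID 621823; chr11:48945345-48946410), whose symbol marks it as a copy of Psme2. Psme2b was listed at 0 in both WT-labelled home cage libraries, at 0 and 0.14 FPKM in KO-labelled home cage, at 0, 0 and 0.10 FPKM in WT-labelled exploration, and at 0, 0 and 0.04 FPKM in KO-labelled exploration. Its values rest on 0 to 2 estimated fragments, so they cannot be told from 0, and reads of near-identical copies may be split between them. Psma8, the testis form of an alpha subunit, reached at most 0.13 FPKM, and Psmb11, the thymus form of the chymotrypsin-like subunit, at most 0.09 FPKM.

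The constitutive catalytic subunits were far above their inducible partners in all 10 libraries. Psmb5 measured 161 and 144 FPKM in the WT-labelled home cage libraries, 164 and 128 FPKM in the KO-labelled home cage libraries, 193, 193 and 205 FPKM in WT-labelled exploration, and 217, 201 and 237 FPKM in KO-labelled exploration. Psmb8 (gene ID 16913) measured 0.70 and 0.76 FPKM, 0.37 and 0.83 FPKM, 0.80, 0.53 and 0.58 FPKM, and 1.28, 0.36 and 1.03 FPKM in the same order of groups. The 4 groups overlapped for Psmb8, whose values rest on 11 to 38 estimated fragments. Psmb8 stood at 0.179% to 0.650% of Psmb5.

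Psmb6 (gene ID 19175, chr11:70525324-70527858) measured 99.1 and 96.5 FPKM in the WT-labelled home cage libraries, 106 and 94.1 FPKM in KO-labelled home cage, 126, 123 and 129.8 FPKM in WT-labelled exploration, and 134, 116 and 128 FPKM in KO-labelled exploration. All 6 exploration libraries lay above all 4 home cage libraries. Psmb9 (gene ID 16912) measured 1.38 and 0.96 FPKM, 0.58 and 0.65 FPKM, 0.70, 0.49 and 0.70 FPKM, and 0.57, 0.78 and 0.73 FPKM in the same order. Psmb9 was highest in the WT-labelled home cage libraries, overlapped among the other groups, and stood at 0.399% to 1.39% of Psmb6. It was not tested, since 1 library alone reached 1 FPKM.

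Psmb7 (gene ID 19177, chr2:38588046-38643952), for the trypsin-like subunit, measured 119 and 131 FPKM in WT-labelled home cage, 132 and 117 FPKM in KO-labelled home cage, 159, 149 and 166 FPKM in WT-labelled exploration, and 170.0, 157 and 159 FPKM in KO-labelled exploration. Its inducible partner Psmb10 (gene ID 19171, chr8:105935728-105938392) measured 15.35 and 17.5 FPKM, 18.9 and 15.85 FPKM, 21.4, 21.0 and 25.9 FPKM, and 26.0, 21.4 and 22.6 FPKM. For both genes, all 6 exploration libraries were above all 4 home cage libraries. Psmb10 stood at 12.9% to 15.6% of Psmb7, so of the inducible subunits it alone was detected at a level within an order of magnitude of its partner.

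**Figure D1:**
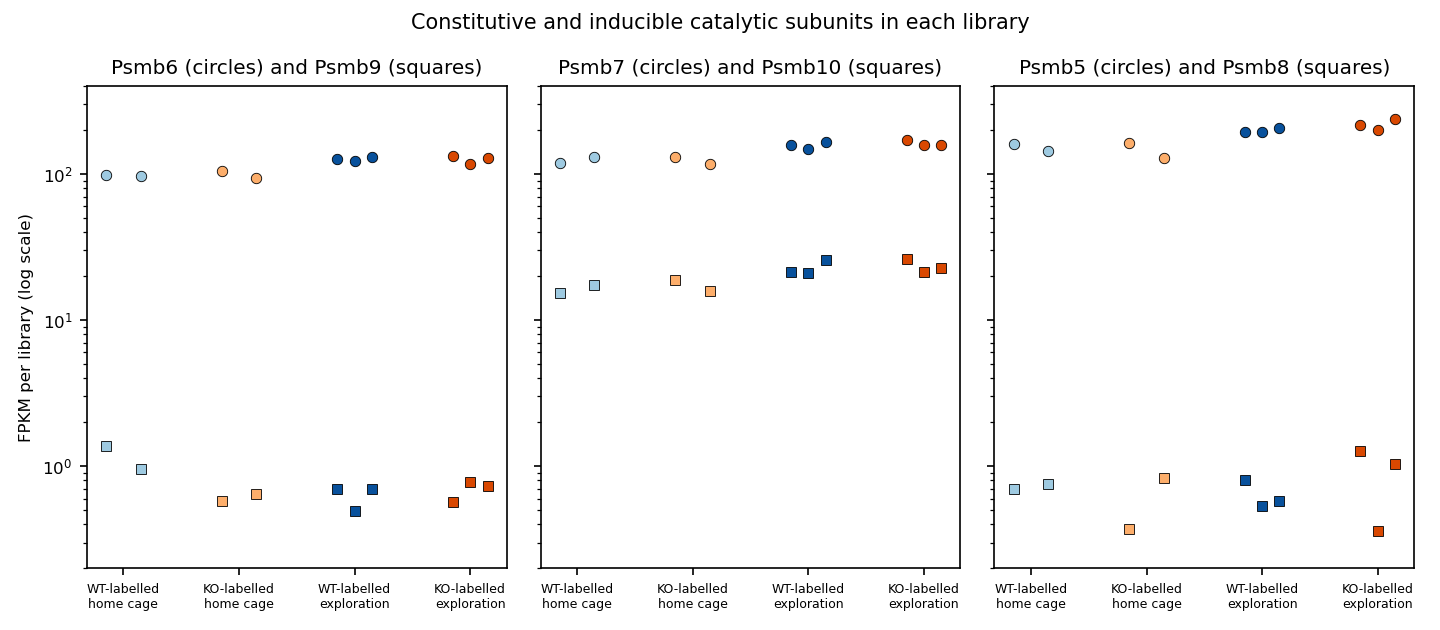
FPKM of the constitutive catalytic genes (circles) and their inducible partners (squares) in each of the 10 libraries, on a log axis, by group. Psmb8 and Psmb9 lie between 0.36 and 1.38 FPKM in all groups, and Psmb10 between 15.35 and 26.0 FPKM.

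Differences were tested with limma on log2(FPKM + 1) across the 11892 genes that reached 1 FPKM in at least 2 libraries, with all 10 libraries in 1 fit. A gene is called at a Benjamini-Hochberg adjusted p under 0.05. Of the 50 genes, 46 were tested, and Psma8, Psmb9, Psmb11 and Psme2b were not. Psmb8 entered through 2 KO-labelled exploration libraries alone. The 46 include Psmc3ip, which matches the symbol rule but encodes a meiotic recombination factor and not a subunit. Changes are given on the log2(FPKM + 1) scale with the standard error (SE), and this scale understates the change of low genes.

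After exploration the WT-labelled libraries had higher levels of 5 proteasome genes than the WT-labelled home cage libraries, and none was called lower. The 5 were Psmb10, Psmb6, Psmb7, Psme1 and Psmc3, so 3 of them encode catalytic subunits. They compare with 2.02% of all tested genes called higher in this comparison. The exploration libraries lay wholly above the home cage libraries for 34 of the 46 genes, against 19.7% of all tested genes. They lay wholly below for Psme4, and the share of all tested genes wholly below was not taken. The median change of the 46 was 0.19, beside -0.02 for all tested genes, and 41 of the 46 changes were positive.

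Psmb10 had the largest rise of the 5, by 0.45 (SE 0.12, limma adjusted p = 0.0469). Psmb6 rose by 0.37 (SE 0.08, limma adjusted p = 0.023), which is 28.8% of FPKM + 1. Psmb7 rose by 0.34 (SE 0.08, limma adjusted p = 0.0359). Psmb5, the constitutive catalytic gene not called, had a value of 0.37 (SE 0.11, limma adjusted p = 0.064), although its 3 exploration libraries also lay above both home cage libraries.

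Psme1 (gene ID 19186) encodes a subunit of PA28, an activator ring that opens the core without ATP. It measured 25.1 and 26.3 FPKM in WT-labelled home cage, 31.3 and 31.5 FPKM in KO-labelled home cage, 34.4, 33.1 and 29.9 FPKM in WT-labelled exploration, and 32.9, 31.3 and 28.4 FPKM in KO-labelled exploration. The WT-labelled home cage libraries were below the other 8, and the other 3 groups overlapped. The rise among WT-labelled libraries was 0.32 (SE 0.08, limma adjusted p = 0.0461). Psme2, for the partner subunit of the same ring, had a value of 0.27 (SE 0.08, limma adjusted p = 0.0801).

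Psmc3 (gene ID 19182, chr2:91054016-91059438), for an ATPase of the cap, measured 102 and 95.4 FPKM in WT-labelled home cage, 109.5 and 98.0 FPKM in KO-labelled home cage, 121, 122 and 119 FPKM in WT-labelled exploration, and 118, 116 and 127 FPKM in KO-labelled exploration. The exploration libraries were above all home cage libraries. The rise among WT-labelled libraries was 0.29 (SE 0.08, limma adjusted p = 0.0442). Its values are given in full because it completes the 5 calls, a choice made after they were seen.

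The number of WT-labelled calls moved with each library left out. No proteasome gene was called without either WT-labelled home cage library or without WT-labelled exploration library 1 or 2, and 1 was called without WT-labelled exploration library 3 or KO-labelled exploration library 2. Without KO-labelled home cage library 1 or 2 the count was 9. Without KO-labelled exploration library 1 it was 10, and without library 3 of that group 8, in each case with Psme4 as 1 lower call. All 5 genes were still among the calls without any 1 of these 4 KO-labelled libraries. Fitted on the WT-labelled groups alone, 18 genes were called higher and Psme4 lower, beside 5.65% of all tested genes called higher. The directions of the 5 genes were positive under all these settings.

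After exploration the KO-labelled libraries had higher levels of 23 proteasome genes than the KO-labelled home cage libraries, and none was called lower. These were most of the core particle: 6 of the 7 alpha genes tested, 3 of the 4 non-catalytic beta genes, all 3 constitutive catalytic genes and Psmb10. The background was 12.0% of all tested genes called higher. The exploration libraries lay wholly above the home cage libraries for 30 of the 46, against 22.2% of all tested genes. They lay wholly below for Psmc4, Psmd11 and Psme3, none of which was called in this fit. The share of all tested genes wholly below was not taken, so these genes are only named. With quantile normalization Psmc4 was called lower, where 3061 of 11892 tested genes were called in either direction. The median change of the 46 was 0.26, beside -0.04 for all tested genes, and 38 changes were positive.

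The largest rises were in assembly chaperones of the core. Psmg4 (gene ID 69666, chr13:34162964-34178172) measured 12.6 and 13.9 FPKM in WT-labelled home cage, 11.1 and 8.83 FPKM in KO-labelled home cage, 18.6, 18.04 and 18.3 FPKM in WT-labelled exploration, and 24.85, 19.1 and 15.1 FPKM in KO-labelled exploration. All exploration libraries exceeded all home cage libraries, and the KO-labelled exploration libraries spread most. The KO-labelled rise was 0.90 (SE 0.16, limma adjusted p = 0.00308). Psmg4 encodes a chaperone that acts early in alpha ring assembly, and its short transcript yielded 76 to 217 estimated fragments.

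Psmg3 (gene ID 66506, chr5:139823613-139826894), for the partner chaperone of Psmg4, measured 12.65 and 9.23 FPKM in WT-labelled home cage, 9.39 and 9.49 FPKM in KO-labelled home cage, 12.2, 13.2 and 14.3 FPKM in WT-labelled exploration, and 17.4, 15.0 and 15.3 FPKM in KO-labelled exploration. The KO-labelled exploration libraries were the highest of all 10, and the WT-labelled groups overlapped. The KO-labelled rise was 0.69 (SE 0.12, limma adjusted p = 0.00297), which is 61.5% of FPKM + 1. Psmg1 and Psmg2, for the other alpha ring chaperone pair, had values of 0.04 and -0.10 and were not called.

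Psmb5 rose by 0.59 in the KO-labelled libraries (SE 0.11, limma adjusted p = 0.00364), the largest change among the catalytic genes. Psmb7 rose by 0.38 (SE 0.08, limma adjusted p = 0.00746) and Psmb6 by 0.33 (SE 0.08, limma adjusted p = 0.0116). Psmb10 rose by 0.41 (SE 0.12, limma adjusted p = 0.0263). Psmb8 had a value of 0.22 (SE 0.21) and was not called.

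Psma7 (gene ID 26444, chr2:180036367-180042464), for an alpha subunit, measured 94.8 and 90.95 FPKM in WT-labelled home cage, 92.4 and 81.7 FPKM in KO-labelled home cage, 111, 104 and 115 FPKM in WT-labelled exploration, and 139, 116.5 and 115 FPKM in KO-labelled exploration. Every exploration library was above every home cage library. The KO-labelled rise was 0.50 (SE 0.10, limma adjusted p = 0.00436). The other called alpha genes, Psma2 to Psma6, rose by 0.27 to 0.40. Psma1 had a value of 0.30 (SE 0.12, limma adjusted p = 0.0851), with 1 exploration library at 79.8 FPKM inside the home cage range.

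In the cap, the non-ATPase genes gave 6 of 11 calls in the KO-labelled libraries and the ATPase genes none of 6. The 6 were Psmd4, which encodes a ubiquitin receptor, Psmd14, which encodes the deubiquitinase of the lid, and the lid genes Psmd6, Psmd7, Psmd12 and Psmd13, with rises of 0.22 to 0.34. The ATPase genes had values of -0.11 to 0.25, and Psmc1, Psmc3 and Psmc6 had limma adjusted p-values of 0.058, 0.0539 and 0.0577. Psmd10, for a cap chaperone also known as gankyrin, rose by 0.38 (SE 0.10, limma adjusted p = 0.0182). Psme2 rose by 0.30 (SE 0.08, limma adjusted p = 0.0225), while Psme1 had a value of -0.03 and was not called.

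The KO-labelled calls depended on 1 home cage library. Without KO-labelled home cage library 2, Psmg3 alone was called, 1.82% of all tested genes were called higher, and the median change of the proteasome genes was 0.21. Without any 1 exploration library 19 to 24 were called higher, beside 9.25% to 12.8% of all tested genes. Fitted on the KO-labelled groups alone, 9 were called: Psma2, Psma4, Psma7, Psmb3, Psmb5, Psmb7, Psmd7, Psmg3 and Psmg4, beside 5.94% of all tested genes called higher.

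**Figure D2:**
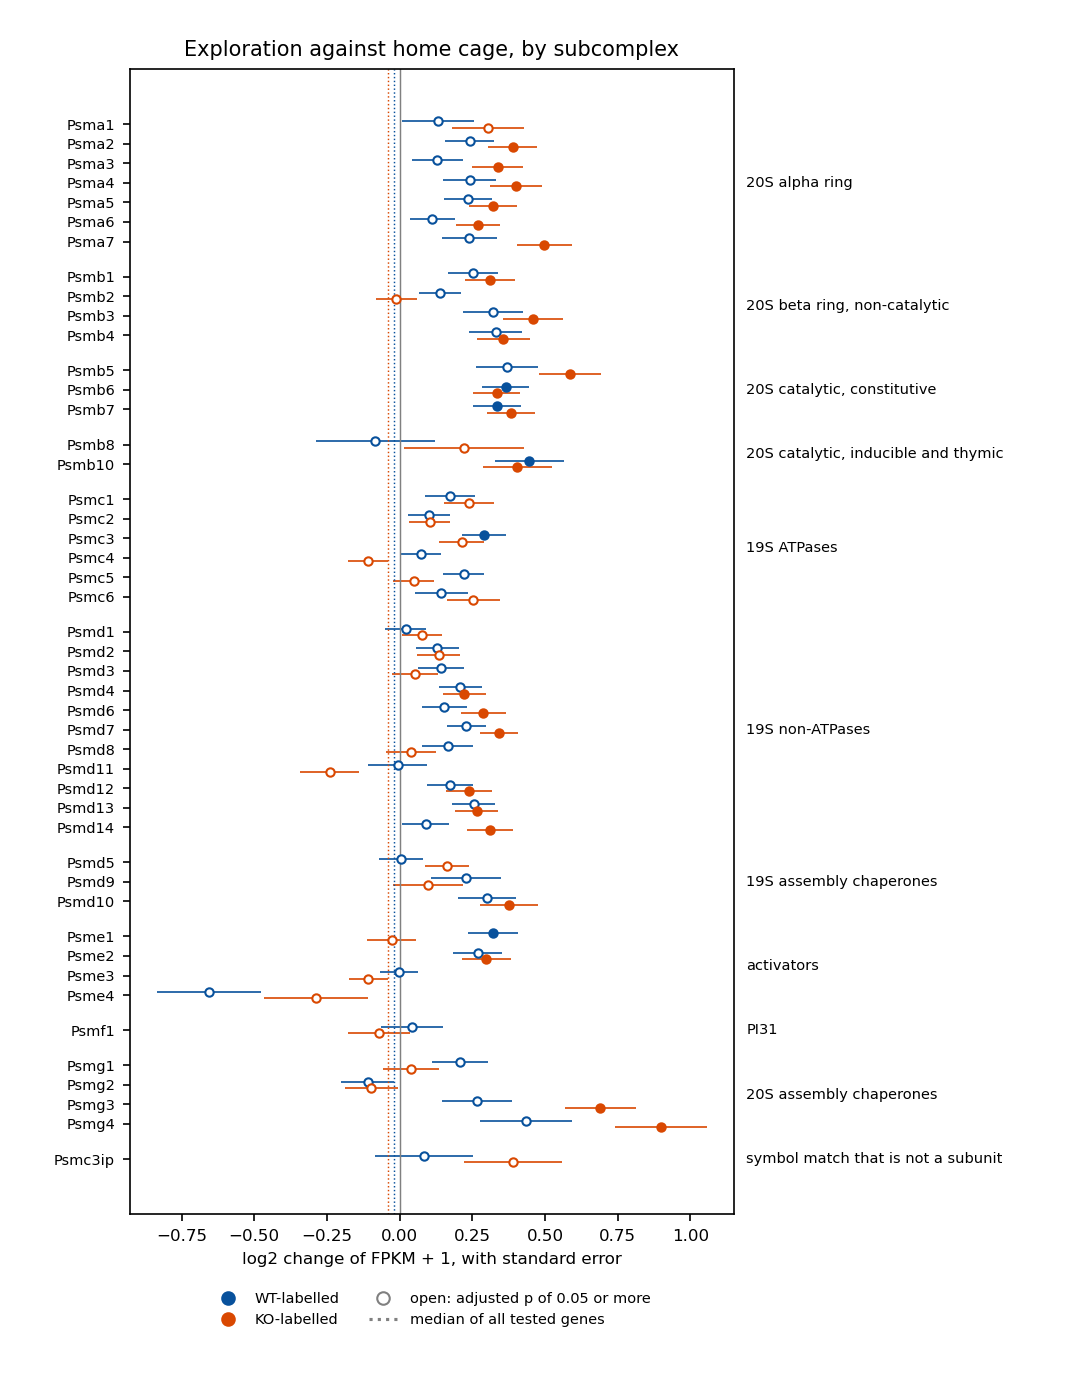
Change of each tested proteasome gene from home cage to exploration in WT-labelled (blue) and KO-labelled (orange) libraries, log2(FPKM + 1) scale, with standard errors, grouped by subcomplex. Filled points passed an adjusted p of 0.05, and dotted lines give the median of all tested genes. Most points of the core particle lie to the right of 0 in both, and Psme4 lies farthest to the left.

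The 2 responses shared 3 calls, Psmb6, Psmb7 and Psmb10, which is 60.0% of the 5 WT-labelled calls and 13.0% of the 23 KO-labelled calls. The difference between the responses was tested itself, as KO-labelled response minus WT-labelled response, where a constant difference between the table parts cancels. In limma, 0 of the 46 were called, against 0.875% of all tested genes, and 2 had an unadjusted p under 0.05. Psme1 differed by -0.35 (SE 0.12, limma adjusted p = 0.171) and Psmg3 by 0.42 (SE 0.17, limma adjusted p = 0.242). The median difference was 0.06, beside 0.00 for all tested genes. The larger number of KO-labelled calls is therefore not a tested difference for any gene.

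**Figure D3:**
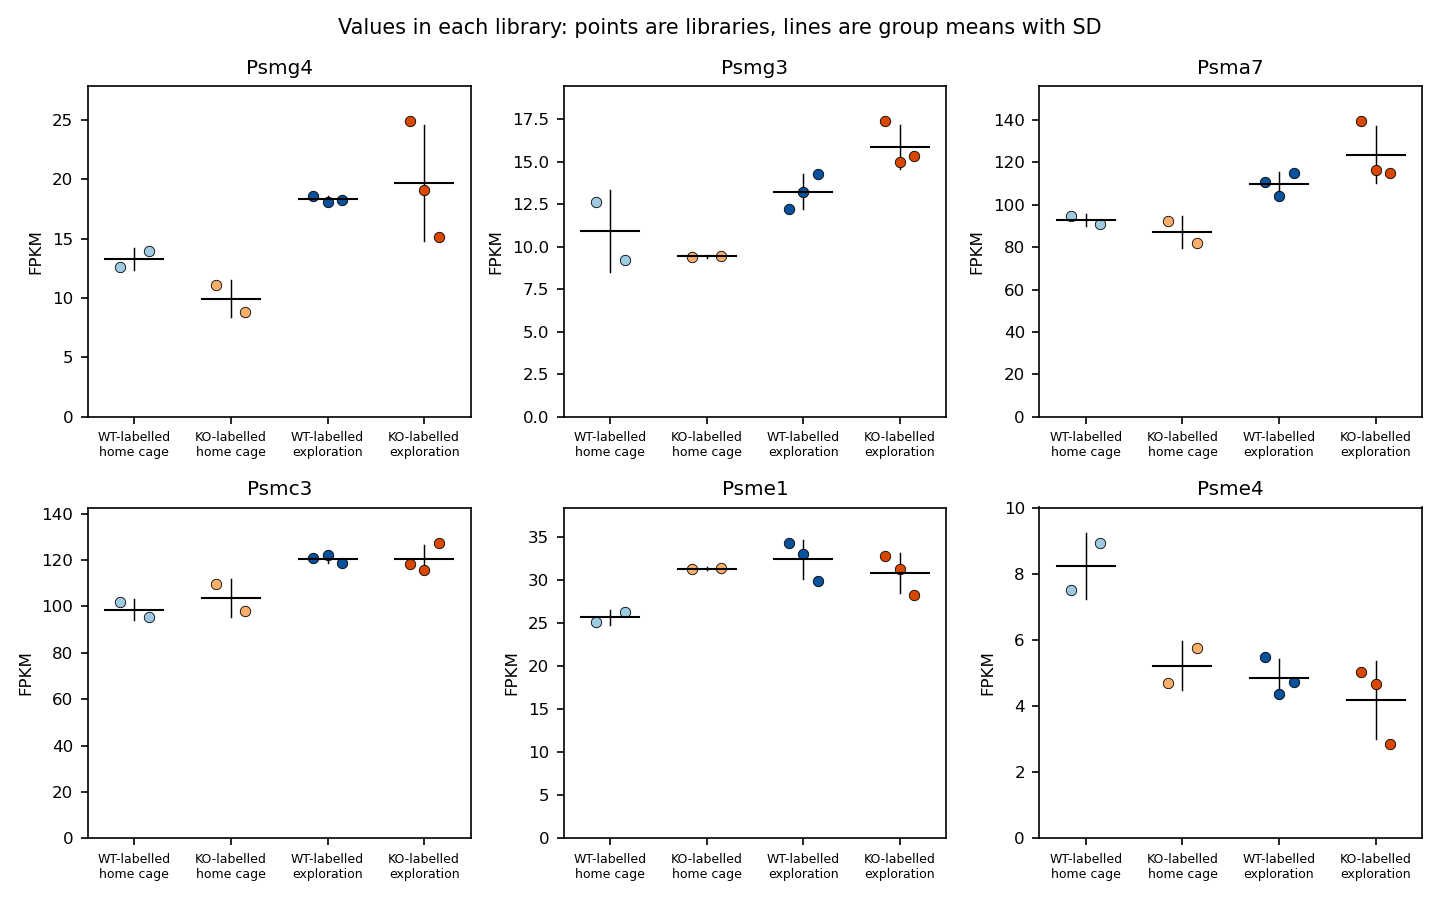
FPKM of 6 proteasome genes in each library (points), with group means (horizontal lines) and SD (vertical lines). Psmg3 is highest in the 3 KO-labelled exploration libraries, and Psme1 and Psme4 set the 2 WT-labelled home cage libraries apart, Psme1 as lowest and Psme4 as highest.

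Psme4 (gene ID 103554, chr11:30771775-30881150) had the lowest change of the 46 in both exploration responses and is described because of that, after its values were seen. It encodes PA200, a large nuclear activator known for histone degradation. It measured 7.52 and 8.93 FPKM in WT-labelled home cage, 4.69 and 5.75 FPKM in KO-labelled home cage, 5.49, 4.36 and 4.72 FPKM in WT-labelled exploration, and 5.02, 4.67 and 2.84 FPKM in KO-labelled exploration. The WT-labelled home cage libraries lay above the other 8, which overlapped among groups. The difference among WT-labelled libraries was -0.66 (SE 0.18, limma adjusted p = 0.0503), and with median-of-ratios size factors Psme4 was called lower. Among KO-labelled libraries it was -0.29 (SE 0.18, limma adjusted p = 0.243), and the libraries of the 2 environments overlapped. Some other members also had negative changes. The Psme4 transcript, at 6491 nt, is the longest of the 46.

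Transcript length moved with both exploration responses. Over the 11781 tested genes with a length, Spearman's rho between length and change was -0.493 in WT-labelled and -0.403 in KO-labelled libraries. These are correlations across genes of the same libraries and are given as a description. Over the 46 proteasome genes rho was -0.549 and -0.482. The proteasome genes had a median length of 1425 nt, beside 2903 nt for all, so they sit among the shorter transcripts.

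In 5 of 6 length classes the median of the proteasome genes was above that of all genes, in both responses, and the sixth class, from 5000 nt, held Psme4 alone. Below 1000 nt, the median change in WT-labelled libraries was 0.27 for 9 proteasome genes and 0.22 for 811 genes, and in KO-labelled libraries 0.46 and 0.24. From 1000 to 1500 nt it was 0.22 for 15 and 0.12 for 1182 genes in WT-labelled, and 0.30 and 0.14 in KO-labelled libraries. From 2000 to 3000 nt it was 0.14 for 7 and 0.00 for 2757 genes in WT-labelled, and 0.10 and -0.02 in KO-labelled libraries.

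With smooth trends on length and GC content removed from each library, an alternative chosen after seeing the data, fewer proteasome genes were called. In WT-labelled libraries 2 were called higher, Psma2 and Psmb1, beside 1.84% of all tested genes, and none of the 5 above. In KO-labelled libraries 14 were called higher, beside 13.6%, of which 12 were among the 23, and Psmg2 was called lower. The median change was then 0.12 in WT-labelled and 0.15 in KO-labelled libraries, beside 0.02 for all genes in both.

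**Figure D4:**
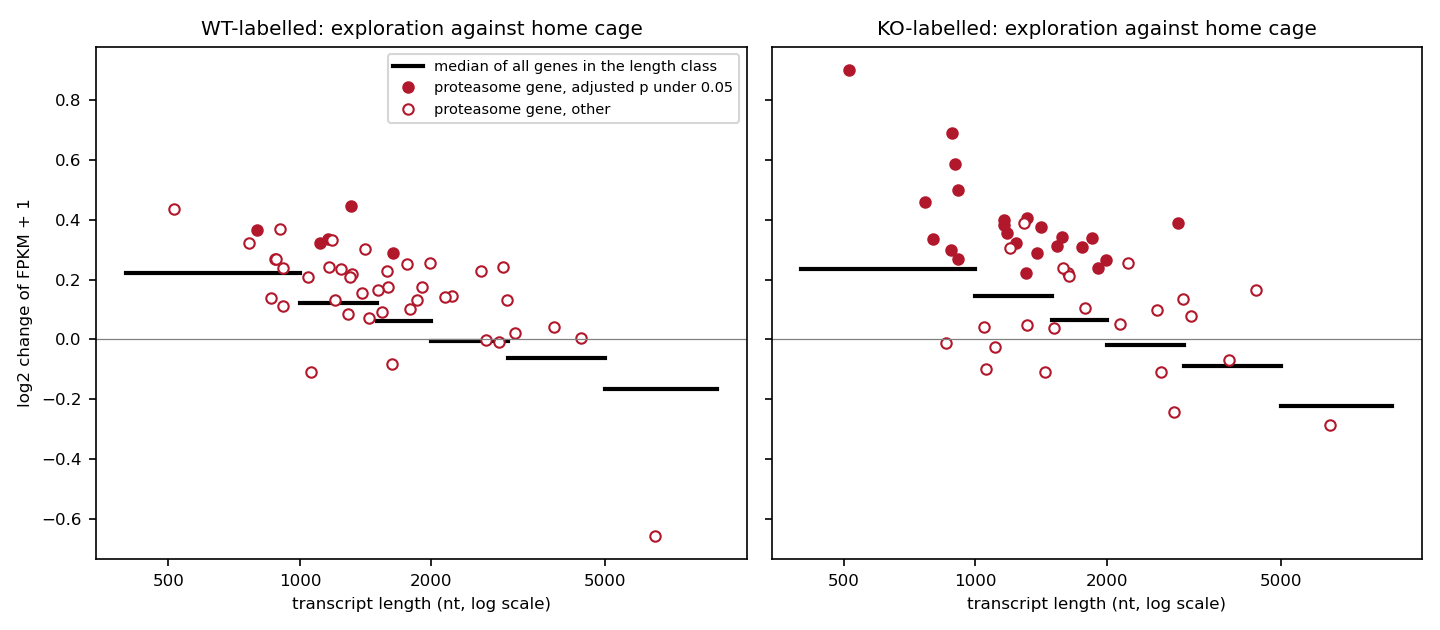
Change of each proteasome gene from home cage to exploration against its transcript length (log axis), with the median of all tested genes in each length class as black bars (bounds at 1000, 1500, 2000, 3000 and 5000 nt). Shorter transcripts have higher changes in all genes and among the proteasome genes, and filled points passed an adjusted p of 0.05.

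Between the labels, no proteasome gene was called in either environment. In the home cage, limma called 0 of 46, against 3.57% of all tested genes, and 6 had an unadjusted p under 0.05. Psme1 was higher in the KO-labelled libraries by 0.28 (SE 0.09, limma adjusted p = 0.132), Psmc5 by 0.20 and the cap chaperone gene Psmd9 by 0.35. Psme4 differed by -0.57 (SE 0.19, limma adjusted p = 0.139), Psmg4 by -0.39 and Psmc3ip by -0.49. The median over the 46 was 0.03, beside -0.02 for all tested genes. The libraries of the 2 labels did not overlap for 12 genes as higher and 6 as lower, where 46.9% of all tested genes did not overlap.

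After exploration, limma again called 0 of 46 between the labels, against 0.597% of all tested genes, and 10 had an unadjusted p under 0.05, 8 of them higher in KO-labelled libraries. The smallest p was that of Psmd5, for a cap chaperone, which was higher by 0.23 (SE 0.07, limma adjusted p = 0.139). Psma6 was higher by 0.21 and Psmd14 by 0.20. The lid gene Psmd3 and the ATPase gene Psmc4 were lower, with differences of -0.22 and -0.18. The median was 0.08, beside -0.02 for all tested genes. The libraries of the 2 labels did not overlap for 15 genes as higher and 2 as lower, where 24.9% of all tested genes did not overlap.

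**Figure D5:**
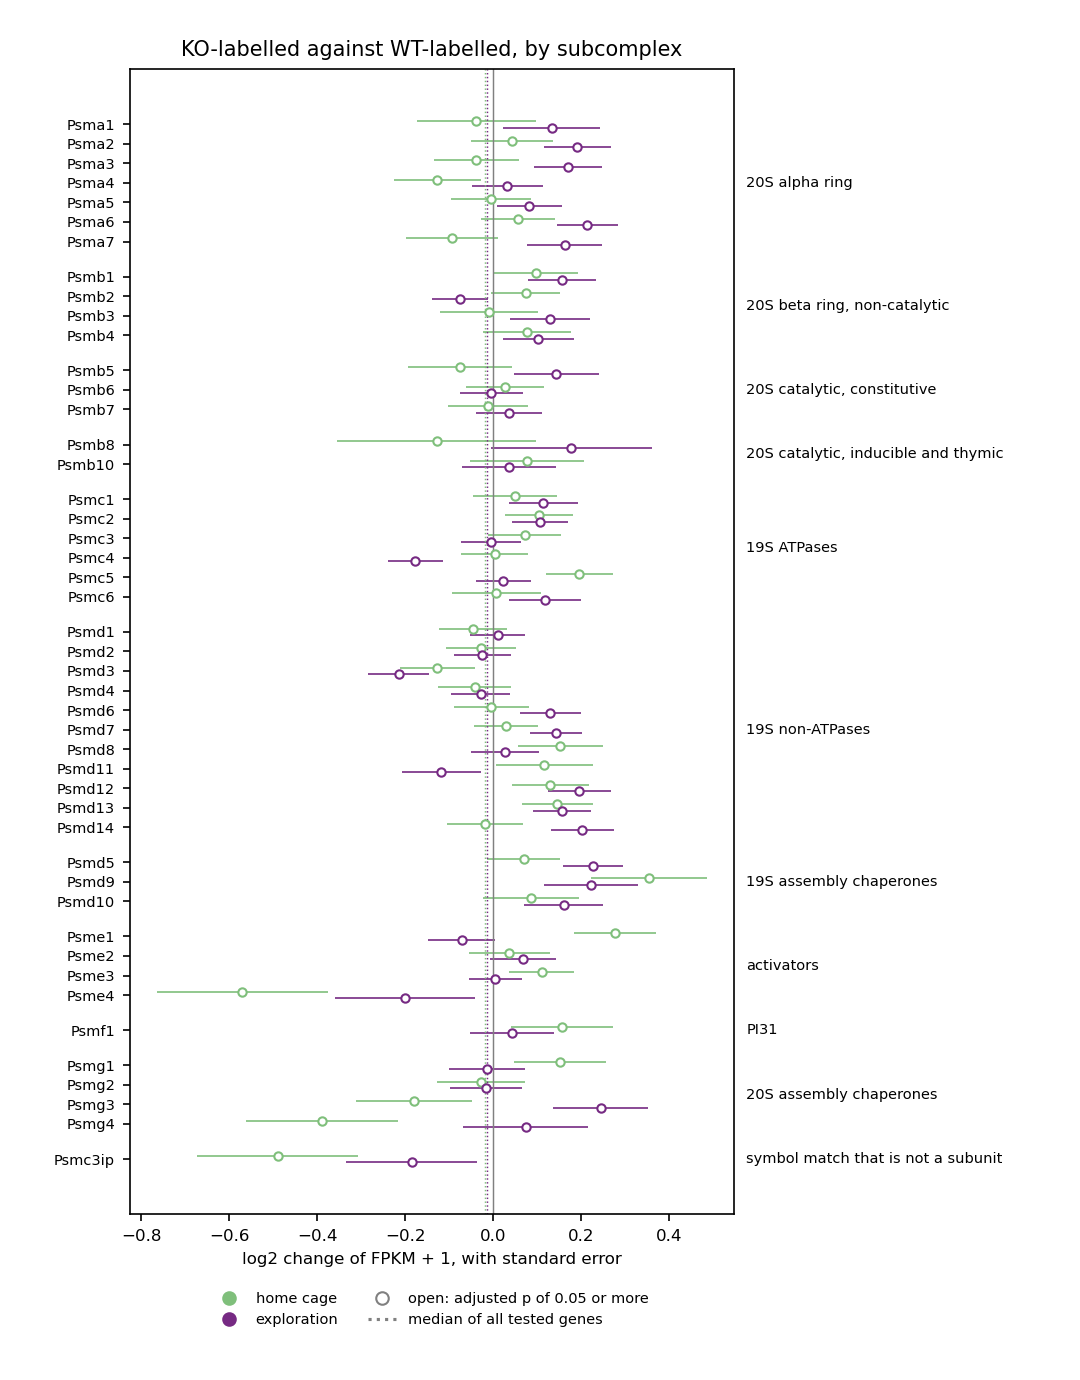
Difference of each tested proteasome gene between KO-labelled and WT-labelled libraries in the home cage (green) and after exploration (purple), log2(FPKM + 1) scale, with standard errors, by subcomplex. All points are open, since none passed an adjusted p of 0.05, and after exploration all 7 alpha genes lie to the right of 0.

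Other genes of the pathway were read from lists that hold no proteasome symbol. Of 8 tested partners of the particle, 4 rose in the KO-labelled response, beside 12.0% of all tested genes called higher. They were Akirin2 (0.27, SE 0.07), which brings proteasomes into the nucleus, Uchl5 (0.29, SE 0.09), a deubiquitinase of the cap, Pomp (0.26, SE 0.08), the maturation factor of the core, and Shfm1 (0.38, SE 0.12), a small lid subunit. Their limma adjusted p-values were 0.0153 to 0.0391, and no partner was called in the WT-labelled response, where 2 had an unadjusted p under 0.05 and 2.02% of all tested genes were called higher. Of 6 genes for ubiquitin and its activating enzymes, Rps27a, which encodes ubiquitin fused to a ribosomal protein, rose in both responses, by 0.67 (SE 0.14, limma adjusted p = 0.0204) and 0.84 (SE 0.14, limma adjusted p = 0.00269).

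Of 10 genes for shuttle receptors and substrate extraction, Ddi2, which encodes the protease that activates the product of Nfe2l1, fell by 0.90 in the KO-labelled response (SE 0.19, limma adjusted p = 0.00612), beside 16.6% of all tested genes called lower. It was at 3.58 and 6.83 FPKM in KO-labelled home cage and at 2.01 to 2.53 FPKM in KO-labelled exploration. Of Nfe2l1, Nfe2l2 and Ngly1, regulators of proteasome genes, limma called 0 in any comparison, with 1 at an unadjusted p under 0.05 after exploration between the labels and 0 in the other comparisons. Their summed level was 74.6 to 81.8 FPKM over the 10 libraries.

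Markers of other cells moved with some of these comparisons. CA1 pyramidal markers summed to 634.2 to 773.7 FPKM and dentate granule markers to 1.0 to 2.2 FPKM over the 10 libraries, and no listed marker of any type was at 0 in every library. In the WT-labelled response, 3 of 4 tested blood genes, 4 of 6 oligodendrocyte, 3 of 6 astrocyte, 3 of 7 microglia and 1 of 7 interneuron markers rose, beside 2.02% of all tested genes. Blood genes summed to 94.9 to 154.1 FPKM in WT-labelled and 124.6 to 149.2 FPKM in KO-labelled home cage, and to 227.6 to 308.1 and 160.0 to 291.2 FPKM after exploration. Oligodendrocyte markers summed to 137.4 to 164.3 and 187.5 to 225.3 FPKM in the home cage, and to 197.0 to 365.4 and 231.9 to 265.2 FPKM after exploration, WT-labelled first. Astrocyte markers summed to 123.6 to 135.3 and 199.3 to 231.2 FPKM in the home cage and to 153.1 to 196.5 and 184.3 to 215.2 FPKM after exploration. Microglia markers summed to 42.5 to 46.7 and 53.2 to 56.9 FPKM in the home cage and to 53.6 to 62.3 and 58.7 to 64.6 FPKM after exploration.

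In the KO-labelled response, 3 of 5 tested CA2 and CA3 markers, 2 of 7 interneuron markers and 1 of 4 blood genes rose. Of 5 CA1 markers, 1 rose and 3 fell. Over all tested genes, 12.0% were called higher and 16.6% lower in this response. Limma called none of the astrocyte, oligodendrocyte, microglia or endothelial markers, of which 1 microglia marker had an unadjusted p under 0.05. CA2 and CA3 markers summed to 125.7 to 129.0 FPKM in KO-labelled home cage and to 151.3 to 213.2 FPKM in KO-labelled exploration. In WT-labelled libraries they summed to 124.7 to 198.5 FPKM in the home cage and to 157.7 to 172.1 FPKM after exploration. Interneuron markers summed to 211.7 to 244.7 FPKM in the home cage and 276.2 to 359.2 FPKM after exploration. Between the labels in the home cage, 3 of 6 astrocyte, 1 of 7 microglia and 2 of 5 tested endothelial markers were called higher in KO-labelled libraries. This stood beside 2.12% of all tested genes called higher. Of 5 CA1 markers, Mpped1 was called higher and Wfs1 lower, where 173 of 11892 tested genes were called lower. Wfs1 was at 127.3 and 64.88 FPKM in KO-labelled and at 218.93 and 192.41 FPKM in WT-labelled home cage. The part of these markers in the proteasome values was not tested.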

How the data were processed

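Each library is laser-cut CA1 of 1 mouse, sequenced by the paired-end BGISEQ method with 100 bp reads, per the labels' protocols. The authors deposited FPKM per gene and library, per the file headers, in 2 parts, 1 per environment. The submitters' processing notes name HISAT, StringTie, GATK, Bowtie2 and RSEM and the builds GRCm38 and mm10, without a role. Whether the parts were scaled together is not given in the sources used here.

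The parts were joined on gene ID (17986 genes). The step size of low values gave a depth of 18050000 to 19300000 fragments (transcript lengths less 50 nt), so 1 fragment on 1 kb is worth 0.0518 to 0.0554 FPKM, and estimated fragments per gene follow from it. Genes that reached 1 FPKM in 2 or more libraries were tested on log2(FPKM + 1) with limma 3.58.1 (R 4.3.3), using a variance trend, 1 mean per group and all 10 libraries (residual degrees of freedom 6, prior 5.71). P-values were adjusted by Benjamini and Hochberg's method over all 11892 tested genes. P-values measure the spread between the sampled mice. Lengths and GC content came from GENCODE transcripts for 99.1% of tested genes, and promoter windows from RefSeq. A further promoter motif is not reported here.

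The genes and lists were chosen with earlier results of these data known. Values in every library are given for the 6 catalytic genes, for up to 4 called genes with the largest rise per exploration comparison, and for the highest and lowest mean. Outside this rule, full values are given for Psmc3, Psme4, Psmc4 and H2-D1, after their results were seen. The same holds for the values by group of Tapbp, Tap1, Irf9, Ddi2 and Wfs1. The fit was repeated with other settings: a pseudocount of 0.1, filters of 5 FPKM or none, size factors by median of ratios, quantile normalization, a fit lacking the variance trend, fits of each comparison's groups, fits lacking 1 library and, added later, removal of length and GC trends.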

Additional observations from a re-analysis of the deposited data

Results flagged for a closer look

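Psmc4, which encodes an ATPase of the cap, lay on opposite sides of its home cage level in the 2 labels, without overlap. It measured 78.4 and 77.1 FPKM in WT-labelled home cage and 84.7, 81.9 and 78.8 FPKM in WT-labelled exploration, so all 3 exploration libraries were above both home cage libraries. It measured 82.1 and 74.0 FPKM in KO-labelled home cage and 72.1, 71.8 and 72.8 FPKM in KO-labelled exploration, so all 3 were below both. The difference between the responses was -0.18 (SE 0.10, log2(FPKM + 1) scale), with a limma unadjusted p of 0.0929 and an adjusted p of 0.401. The difference did not pass the test. In the KO-labelled response itself, Psmc4 was called lower with quantile normalization and not in the main fit.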

How the results depend on the processing

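No paired analysis was possible because replicate numbers were given in accession order and only name libraries. Signs were followed for the proteasome genes called in each response and for those with an unadjusted p under 0.05 in the other 3 comparisons, and none of these changed sign under the settings run. In the WT-labelled response the main count was 5. It was 3 with a pseudocount of 0.1, 2 without a filter and 1 without the variance trend. These stood beside 1.86%, 0.384% and 1.64% of all tested genes called higher. The count was 19 with only the groups of the comparison, beside 5.65%, and 2 with length and GC trends removed, beside 1.84%. When 1 exploration library was left out it was 0 to 10. The median change, 0.19, was 0.13 with quantile normalization, 0.12 with the trends removed and 0.149 to 0.22 when 1 library was left out. In the KO-labelled response the main count was 23. It was 9 with only the groups of the comparison, 15 with the trends removed, and 1 to 25 when 1 library was left out. The median change, 0.26, was 0.32 with size factors, 0.16 with quantile normalization, 0.15 with the trends removed, and 0.21 to 0.31 when 1 library was left out. With size factors, 54.6% of all KO-labelled calls were higher and with the trends removed 55.9%, against 42.0%. In the home cage between the labels the main count was 0. It was 1 with the trends removed (Psmg4, lower) and 0 to 1 when 1 library was left out (Psme4, lower, without KO-labelled exploration library 3). That median, 0.03, was -0.026 to 0.076 when 1 library was left out, both without a KO-labelled home cage library (1 and 2). After exploration between the labels the count stayed at 0 under every setting run. The difference in response also gave 0 throughout, and its median, 0.06, was -0.011 to 0.097 when 1 library was left out. The cause of these shifts was not tested. Depth limits Psmb8, Psmb9, Psma8, Psmb11 and Psme2b, which rest on 38 or fewer estimated fragments.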

Other observations

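Genes of interferon signalling and antigen presentation, the pathway that the inducible catalytic subunits serve, were counted in the KO-labelled response. Of 20 listed, 11 were tested, 2 rose and 3 fell, beside 12.0% of all tested genes called higher and 16.6% called lower. H2-D1, which encodes a class I heavy chain, was at 9.34 and 8.53 FPKM in WT-labelled home cage, 5.40 and 5.17 FPKM in KO-labelled home cage, 8.94, 9.19 and 8.42 FPKM in WT-labelled exploration, and 8.65, 8.86 and 11.03 FPKM in KO-labelled exploration. The KO-labelled home cage libraries were below the other 8. H2-D1 was lower in KO-labelled than in WT-labelled home cage libraries by 0.66 on the log2(FPKM + 1) scale (SE 0.12, limma adjusted p = 0.0186). Its difference in response was 0.75 (SE 0.15, limma adjusted p = 0.0496), where 0.875% of all tested genes were called. With a pseudocount of 0.1, without a filter or without the variance trend, 0 genes were called there, so H2-D1 did not pass. The same held without WT-labelled exploration library 1 or KO-labelled exploration library 3. Without KO-labelled exploration library 2, 2 genes were called there and 0 of them higher, so H2-D1 did not pass either. Fits lacking a home cage library are not counted here, since too few libraries remain in that group. B2m, for the light chain, rose by 0.46 in the KO-labelled response (SE 0.09, limma adjusted p = 0.00405).

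Tapbp, for the tapasin that loads class I molecules, went the other way. It was at 5.32, 5.18 and 5.54 FPKM in KO-labelled exploration and at 7.42 to 7.94 FPKM in the other 7 libraries. It fell by 0.47 in the KO-labelled response (SE 0.08, limma adjusted p = 0.00336) and was lower by 0.45 between the labels after exploration (SE 0.08, limma adjusted p = 0.0281). Tap1, a transporter gene whose exons overlap Psmb9 on the opposite strand, fell by 0.44 (SE 0.14, limma adjusted p = 0.032) and Irf9 by 0.71 (SE 0.18, limma adjusted p = 0.0168). Both are low genes. Tap1 was at 0.78 and 1.18 FPKM in KO-labelled home cage and at 0.49, 0.49 and 0.37 FPKM in KO-labelled exploration, near the 1 FPKM filter. Irf9 was at 2.81 and 2.62 FPKM and at 1.59, 1.60 and 0.74 FPKM in these groups. Psmb8 and Psmb9 themselves showed no separation between KO-labelled home cage and exploration libraries.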
